A study of Mus musculus with 6 samples.

Results

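The H3K27me3 peaks of mouse primary mesangial cells were compared between 3 Control and 3 TGF-β1 samples, and the account below covers the regions that came back in TGF-β1 samples without being called everywhere. Peaks of the 6 samples that shared at least 1 bp were merged into 6924 union regions. The members were chosen by their calls: a region was kept where at least 2 of the 3 TGF-β1 samples had a peak in it, and left out where all 6 samples had one. This gave 347 member regions of 6924, or 5.01%. A second set, called in at least 2 Control samples and at most 1 TGF-β1 sample, held 982 regions, or 14.2%, and is called recurrent in Control below. It is not a mirror of the members, which have no such limit on calls in the other group. Of the members, 92 had 2 Control calls and 138 had 3, so the 2 shares rest on unlike cuts. A further 240 regions were called in all 6 samples. The peak calls chose the members, so calls, widths and fold enrichments are given as a description, with no test.

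Mesangial cells are the contractile support cells of the kidney glomerulus. All 6 samples grew in medium with 25.5 mM glucose and 20% serum and came from passage 3 to passage 6. The TGF-β1 samples were kept for 72 h with TGF-β1 at 10 ng/ml. Nothing in the labels says whether the 3 samples of a group came from separate cultures. The titles and the antibody name H3K27me3, whereas the extraction text in the labels describes an immunoprecipitation of methylated DNA and the file headers call the aligned libraries genomic DNA, so the assay rests on the titles, the antibody and the study's own methods. No input library entered the peak calls, and no value here separates a change in the mark from a change in the number of DNA copies or in how well reads map.

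H3K27me3 is trimethylated lysine 27 of histone H3. The Polycomb repressive complex 2 writes it, with Ezh2 as the catalytic subunit, and it is best known for lying on CpG-rich promoters of silent developmental genes. TGF-β1 is the cytokine that drives matrix production in these cells. A repeat-rich sequence is a different kind of place for a peak, since a short read from it can match several copies and the assembly may hold fewer copies than the genome. The study's methods say that only uniquely mapped reads entered the peak calls.

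The sequences below show the kinds of place the members were. All are printed from the + strand of the mm9 assembly (NCBIM37). Members with purine-rich arrays are shown first, as examples of members made mostly of short repeated units, with the unit AGCAGG, or its complement CCTGCT, in capitals in the first pair and AGAGGC, or GCCTCT, in the last. They are an intergenic member whose nearest start site is that of periostin (Postn, chr3:54264887-54265006), a member in an intron of Fhit (chr14:11809620-11809739) and a member in an intron of Odz4 (chr7:103969764-103969883).
Postn: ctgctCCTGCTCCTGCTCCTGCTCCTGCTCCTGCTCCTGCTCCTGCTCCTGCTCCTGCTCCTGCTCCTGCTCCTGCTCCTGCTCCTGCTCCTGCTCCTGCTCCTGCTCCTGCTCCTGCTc
Fhit: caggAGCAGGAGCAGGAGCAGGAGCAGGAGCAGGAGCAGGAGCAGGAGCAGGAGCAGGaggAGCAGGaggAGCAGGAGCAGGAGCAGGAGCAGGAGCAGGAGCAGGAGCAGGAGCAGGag
Odz4: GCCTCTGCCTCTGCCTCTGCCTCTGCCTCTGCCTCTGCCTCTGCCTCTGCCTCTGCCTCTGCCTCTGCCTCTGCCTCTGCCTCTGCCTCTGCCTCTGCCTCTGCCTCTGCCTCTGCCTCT
The last set has a promoter and a distal site, with every CG in capitals. The first is the stretch just upstream of the start site of Cadps (chr14:13655594-13655793), whose member had the highest fold enrichment of all promoter members, and the second is the middle of the intronic member of Adamts12 (chr15:11252360-11252509), called in all 3 TGF-β1 samples and no Control sample.
Cadps: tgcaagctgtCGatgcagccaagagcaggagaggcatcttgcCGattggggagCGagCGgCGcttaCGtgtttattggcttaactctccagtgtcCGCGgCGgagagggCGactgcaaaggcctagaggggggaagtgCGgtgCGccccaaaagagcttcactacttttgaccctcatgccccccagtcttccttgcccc
Adamts12: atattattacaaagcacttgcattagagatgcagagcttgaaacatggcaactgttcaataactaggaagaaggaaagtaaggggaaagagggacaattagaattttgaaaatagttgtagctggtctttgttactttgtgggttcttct
The Cadps stretch has 12 CG pairs in 200 bases and the Adamts12 stretch has 0 in 150.

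The 6 libraries had 24753483 to 25635595 aligned tags and 19721434 to 22307716 after removal of duplicates, so depth did not follow the number of peaks, which was 2692, 2699 and 2005 in the Control samples and 1603, 878 and 1337 in the TGF-β1 samples. TGF-β1 sample 2 stood apart, with the fewest peaks, the most tags after duplicate removal and the lowest duplicate rate, 11% against 13% to 21% in the others. Fold enrichment is the pileup of fragments over a local background computed by the peak caller. It was uncertain on chromosome 9, where that background, worked back from pileup and fold enrichment, was 111 fragments at the median peak against 1.91 to 6.22 on the other placed chromosomes. In the member peaks the deposited mean −log10 q was under 1 in 65.0% to 75.6% of peaks per sample, against 60.8% to 71.0% over all peaks of the same samples, so many calls were weak in both. No 2 samples shared a peak with the same start and end.

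TGF-β1 sample 1 called 286 members, sample 2 called 177 and sample 3 called 266. The Control samples called 211, 224 and 209. The pair of samples 1 and 3 alone carried 170 members (49.0%), samples 1 and 2 carried 81, samples 2 and 3 carried 61, and all 3 carried 35. Members made up 7.91%, 8.37% and 10.6% of the peaks of the Control samples and 18.0%, 20.2% and 20.0% of the peaks of the TGF-β1 samples. By the number of Control samples that also called them, 71 members (20.5%) had 0, 46 (13.3%) had 1, 92 (26.5%) had 2 and 138 (39.8%) had all 3. So 276 of the 347 were also called in Control. Of the 2335 regions just outside the rule, called in exactly 1 TGF-β1 sample, 29.4% were called in at least 1 Control sample. The 312 members just inside it, called in exactly 2, had a median fold enrichment of 1.89 in the TGF-β1 samples that called them, and the 2335 just outside had 1.87. Dropping a TGF-β1 sample and applying the rule to the rest left 75 members without sample 1, 122 without sample 2 and 82 without sample 3. With 2 TGF-β1 samples left, both must call a region, and a region called in every remaining sample is left out. Members with 3 Control calls thus drop out by the rule, and the falls do not measure lost calls alone.

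**Figure D1:**
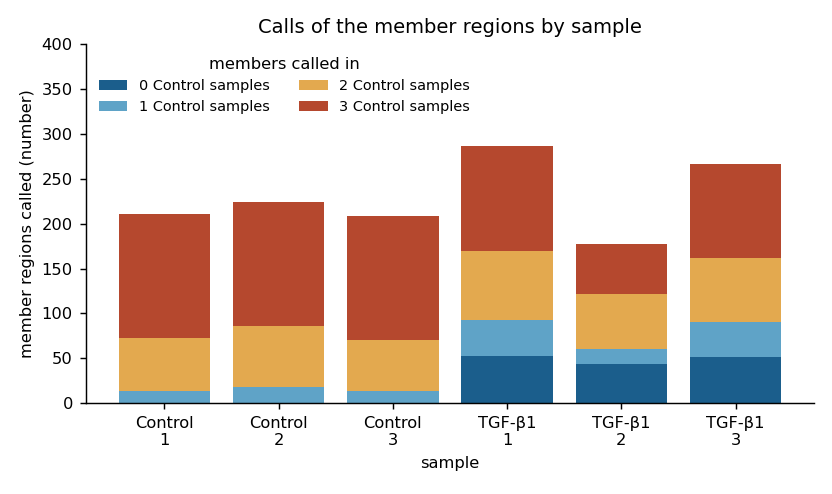
Number of member regions called in each sample, with each bar divided by how many Control samples called the region. The TGF-β1 bars reach 286, 177 and 266, and the bottom block, members with 0 Control calls, is 53, 44 and 51 of them.

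Fold enrichment in the members was low and much alike in the 6 samples. The median over called members was 1.79, 1.75 and 1.86 in the Control samples and 1.85, 1.86 and 1.92 in the TGF-β1 samples, and the highest values were 5.61, 9.48, 8.89, 8.80, 10.5 and 12.8. The other peaks of the same samples had medians of 1.73 to 1.93, so members were not set apart by height. In the 276 members called in both groups, the mean of the TGF-β1 samples over that of the Control samples had a median log2 ratio of 0.08, with quartiles of -0.11 and 0.30. It was more than 2-fold up in 2 members and more than 2-fold down in 3. The ratio was above 1 in 176 members and below 1 in 100. Only samples that called a member have a value, so the means leave out every sample under the calling limit.

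**Figure D2:**
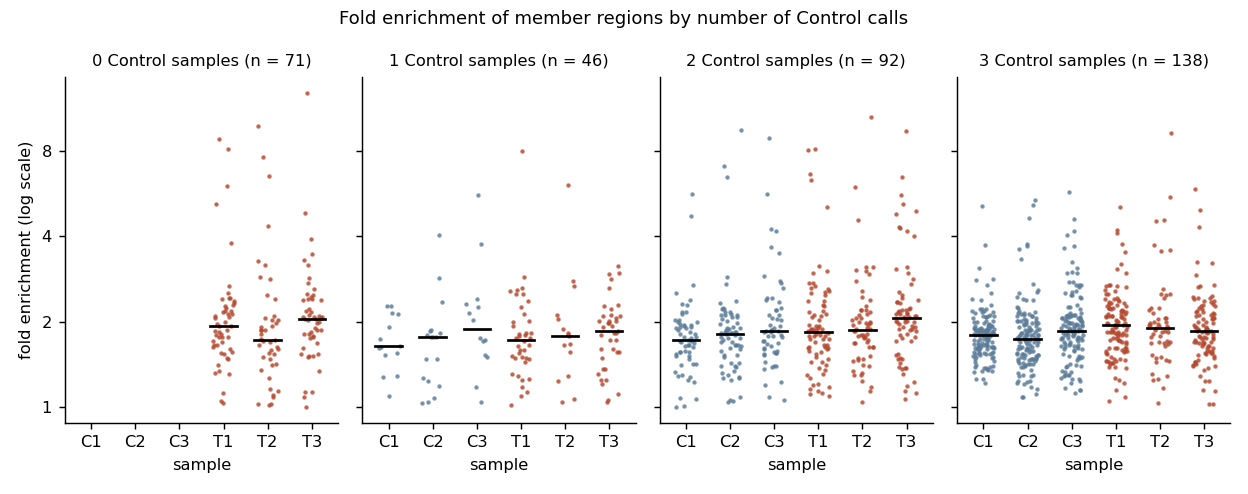
Fold enrichment (log axis) of the member regions in each sample, in 4 panels by the number of Control samples calling the region, with each dot a region and each line the median of a sample. The medians of all samples in all panels lie between 1.63 and 2.06, with a few regions of 4 or more in each panel.

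Members widened and gained CpG content with the number of Control calls. Over the 333 members on placed chromosomes, the median width was 494 bp with 0 Control calls (n = 69), 734 bp with 1 (n = 45), 816 bp with 2 (n = 85) and 1144 bp with 3 (n = 134). The CpG ratio is the number of CG pairs over the number that the base content predicts, and CpG islands are near or above 0.6. Its median was 0.0936, 0.157, 0.184 and 0.503 in the same order. The share of members within 2 kb of the transcription start site (TSS) of a protein-coding gene was 8.70%, 31.1%, 30.6% and 43.3%. A union region grows with each peak that joins it and more calls make a wider region, so width is tied to the number of calls. A region counts as near a TSS or as touching a coding exon by any of its bases. These shares can therefore rise with width, and the gradient is not particular to Control calls. The regions recurrent in Control were wide and CpG-rich as well, with a median of 863 bp and a ratio of 0.543, and the members seen in no Control sample were the CpG-poorest of the region sets compared.

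Among the 69 placed members seen in no Control sample, 37 (53.6%) were intergenic, against 51.5% of all placed union regions, and 25 (36.2%) intronic, against 22.0%. A further 4 touched coding exons, 2 lay in the 2 kb flank of a gene and 1 in a UTR. These shares are given with no test. In the 134 members with 3 Control calls, 49 (36.6%) touched a coding exon and 19 (14.2%) were intronic. Regions with a CpG ratio of at least 0.6 numbered 4 of 69, 6 of 45, 14 of 85 and 50 of 134 members with 0, 1, 2 and 3 Control calls.

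**Figure D3:**
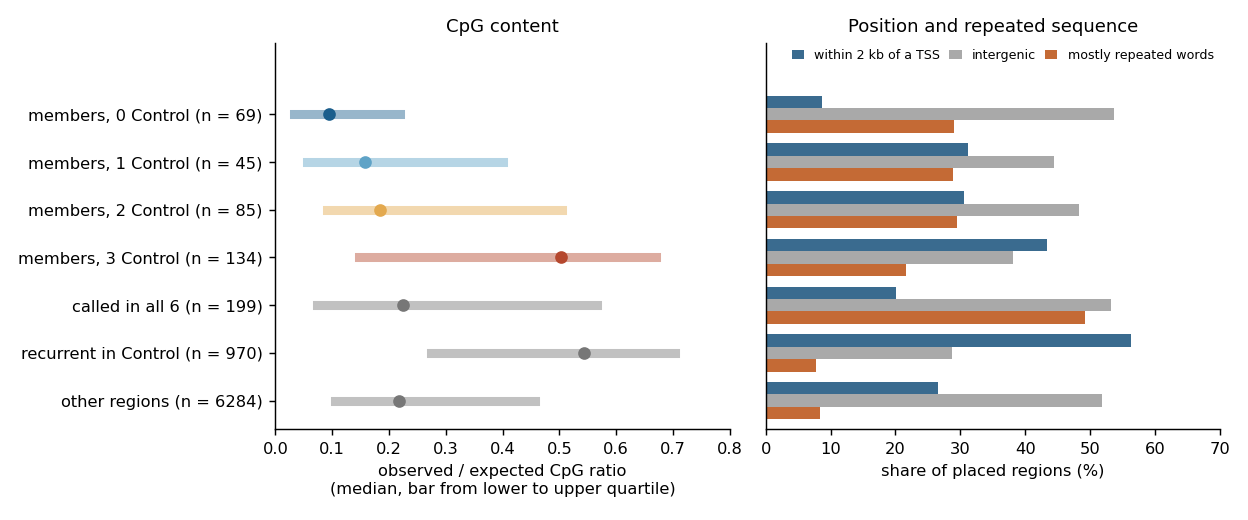
Left, observed over expected CpG ratio of the placed regions (point, median; bar, lower to upper quartile) for members by number of Control calls and for the regions called in all 6 samples, recurrent in Control, and outside the members and the all-sample set (other). Right, the share of each set within 2 kb of a TSS, intergenic, and mostly of repeated words; the median CpG ratio goes from 0.0936 to 0.503 across the 4 member groups while the repeated share stays between 21.6% and 29.4%.

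Sequence and gene position took no part in the rule, so they were tested. In each sample the peaks in member regions were set against the other peaks of that sample, leaving out regions called in all 6 but with those recurrent in Control, and against its peaks in regions recurrent in Control. The 6 differences were put to a 2-sided exact sign-flip test, whose smallest p is 0.03125, and adjusted over the 7 comparisons. The samples share the same regions, so the 6 differences are not independent and can share a sign for that reason. Where all 6 have the same sign, p is 0.03125 whatever their size or spread. Such a p says only that the direction was the same in every library.

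Repeated sequence marked the members in every sample. A peak was called mostly repeated where more than 50% of its 31-base words occurred more than once in the assembly. That held for 23.3%, 23.7% and 29.0% of member peaks in the Control samples and 27.9%, 24.7% and 30.2% in the TGF-β1 samples. In the other peaks of the same samples it held for 7.21%, 7.25% and 9.50% and for 12.3%, 9.57% and 12%, so the sets did not overlap. The difference was 16.8 points ± 1.67 (SD, n = 6), higher in 6 of 6 samples (exact sign-flip p = 0.03125, adjusted p = 0.04375). Against the peaks of regions recurrent in Control, the difference was 15.4 points ± 3.75 (SD, n = 6), again higher in 6 of 6 (exact p = 0.03125, adjusted p = 0.04375). With a share of at least 90% in place of 50%, the differences were 7.62 and 7.30 points in the same direction. Regions called in all 6 samples went further, with 98 of 199 (49.2%) mostly repeated against 87 of 333 members (26.1%) and 76 of 970 regions recurrent in Control (7.84%).

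Members were less often at promoters than the regions recurrent in Control. Of the member peaks, 39.8%, 38.6% and 35.5% lay within 2 kb of a TSS in the Control samples and 31.2%, 24.7% and 30.6% in the TGF-β1 samples. The peaks of regions recurrent in Control gave 57.5%, 58.4%, 56.9%, 53.4%, 53.2% and 56.7%. The difference was -22.6 points ± 4.01 (SD, n = 6), lower in 6 of 6 samples (exact p = 0.03125, adjusted p = 0.04375). The median CpG ratio was 0.276 in member peaks and 0.50 in those of regions recurrent in Control, on average over samples, a difference of -0.224 ± 0.0462 (SD, n = 6; exact p = 0.03125, adjusted p = 0.04375). The direction of these 2 differences and of both repeated-word differences held without any of the 6 samples.

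Against all other peaks, promoters and CpG content gave no firm difference. The share within 2 kb of a TSS differed by 4.49 points ± 5.02 (SD, n = 6; exact p = 0.125, adjusted p = 0.125), with differences of -2.1 to 1.92 in the Control samples and 6.93 to 9.98 in the TGF-β1 samples. The intergenic share differed by -6.07 points ± 5.71 (SD, n = 6; exact p = 0.09375, adjusted p = 0.109). The median CpG ratio was higher in member peaks by 0.0355 ± 0.0298 (SD, n = 6), in 6 of 6 samples (exact p = 0.03125, adjusted p = 0.04375). That call did not last: without TGF-β1 sample 1, 2 or 3 the CpG difference was -0.0705, -0.0991 and -0.127, and with a call counted only where peaks cover 50% of a region it was -0.0997. The member rule itself changes when a TGF-β1 sample is dropped, as given above.

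**Figure D4:**
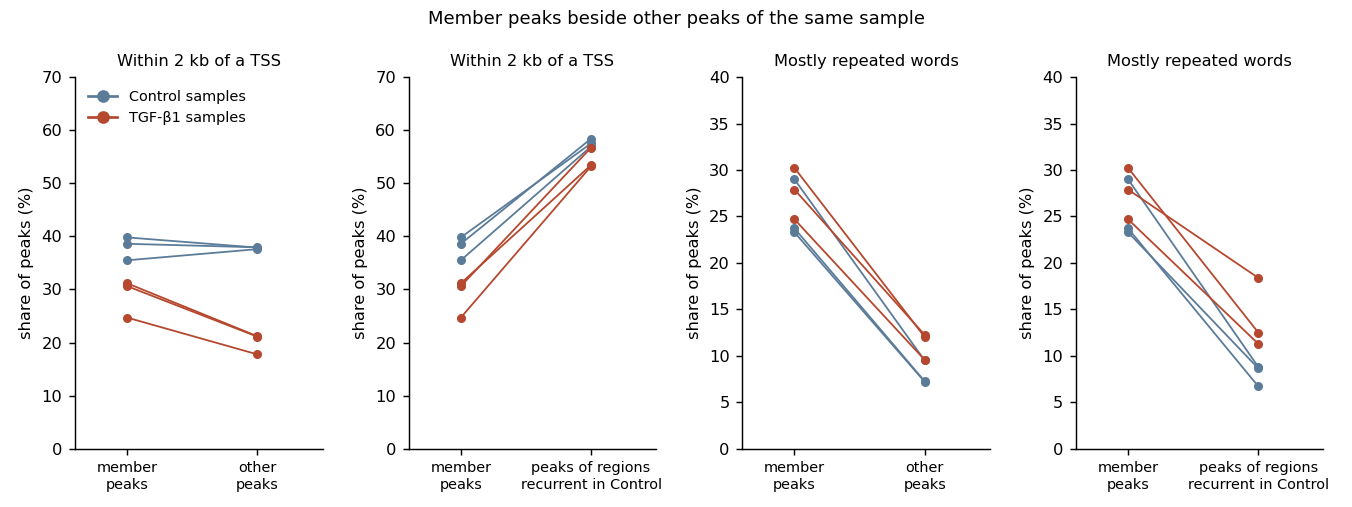
Share of member peaks and of reference peaks within 2 kb of a TSS (both panels on the left) and mostly of repeated words (both panels on the right), with 1 line per sample. All 6 lines fall from members to other peaks in the repeated share and all 6 rise from members to regions recurrent in Control in the TSS share, whereas in the first panel the 3 TGF-β1 lines fall while 2 Control lines fall slightly and 1 rises.

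A small group of members held telomere units. Members were searched on both strands for at least 4 uninterrupted copies of TTAGGG, a feature chosen after the sequences were seen, so it has no test. It was in 27 of 333 placed members (8.11%), 26 of 199 regions called in all 6 samples (13.1%), 20 of 970 regions recurrent in Control (2.06%) and 85 of all 6816 placed union regions (1.25%). Of 792-bp windows tiled over the assembly, 0.00790% (255 of 3229846) held such an array, and of 251 such places in the assembly, 80 lay in a union region. The arrays lay on 15 chromosomes, 17 between genes and 10 in introns, and none within 2 kb of a TSS. Their regions were 252 to 821 bp wide, with a median of 299 bp, and took 26.3% of that length in perfect short repeats at the median.

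The telomere-type members were mostly not called in TGF-β1 sample 2. Control samples called 20, 20 and 25 of the 27, and TGF-β1 samples 1, 2 and 3 called 27, 4 and 25. For comparison, TGF-β1 sample 2 called 166 of the 333 placed members. Over all 85 placed union regions with such arrays, the Control samples called 59, 64 and 76 and the TGF-β1 samples 66, 30 and 55. That set includes the 26 regions called in all 6 samples, which the members leave out. TGF-β1 sample 2 had 878 peaks in all, against 1337 to 2699 in the other samples. Of the 32 telomere-type regions that were neither members nor called in all 6, the Control samples called 13, 18 and 25 and the TGF-β1 samples 13, 0 and 4. By the rule such a region has at most 1 TGF-β1 call, so low TGF-β1 counts there were fixed in advance. Of the 27, 15 were called in all 3 Control samples, 9 in 2, 2 in 1 and 1 in none. Fold enrichment was near 2 in each sample, with medians of 1.90, 1.76 and 2.0 in Control and 1.84, 1.87 and 2.11 in TGF-β1. Without TGF-β1 sample 2 the rule kept 11 telomere-type members of 115, and without sample 1 or 3 it kept 2 of 69 and 3 of 75. With a TGF-β1 sample dropped the rule has no place for members with 3 Control calls, which 15 of the 27 were. So these falls do not measure lost calls alone. Whether the low duplicate rate or the short peak list of TGF-β1 sample 2 had a part in its few calls of these members was not tested.

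The strongest telomere-type member lay between genes at chr16:30829518-30829821. Its fold enrichment was 2.1 and 8.89 in Control samples 2 and 3, with no peak in sample 1, and 6.64, 10.5 and 9.40 in the TGF-β1 samples. Control sample 3 fell inside the TGF-β1 range and Control sample 2 below it. The member in an intron of Ppp1r9a, which encodes the actin-binding protein neurabin, had 3.77 in Control sample 3 and 2.86 and 2.29 in TGF-β1 samples 1 and 3. Telomere-type members also lay in introns of Kcnh1, a voltage-gated potassium channel, Lama1, a laminin chain, and Map2k6, a stress kinase. Lama1 had 1.27 and 1.39 in Control samples 2 and 3 and 1.56 and 2.34 in TGF-β1 samples 1 and 3.

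**Figure D5:**
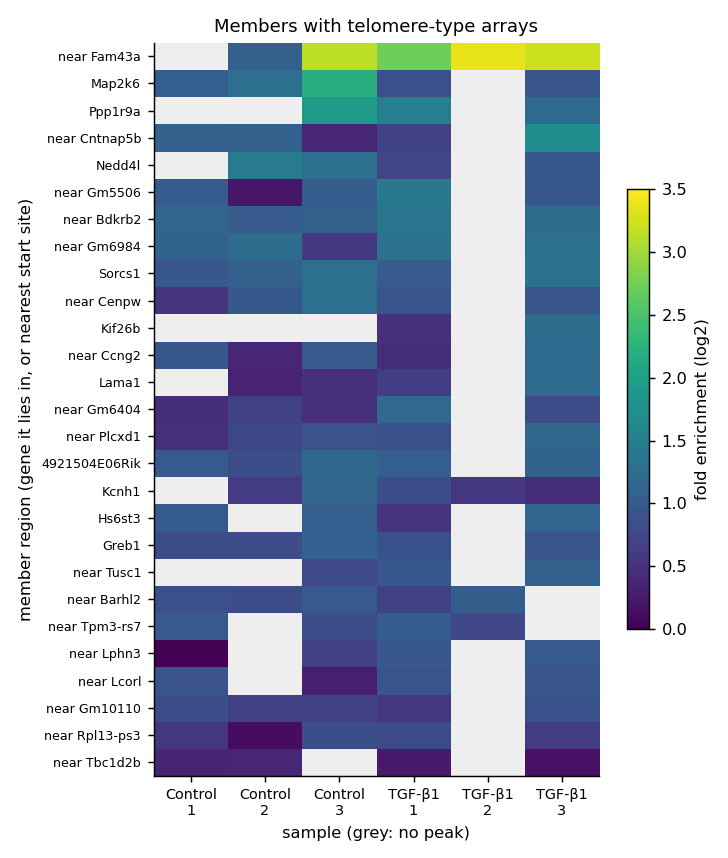
Fold enrichment (log2 colour scale) of the 27 members with telomere-type arrays in each sample, by the gene the region lies in or nearest to, with grey where the sample had no peak; the column of TGF-β1 sample 2 is grey in 23 of 27 rows and the first row is the region near Fam43a, with values up to 10.5-fold.

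Some members were related by shared words, and part of the largest family held purine-rich arrays. Members were grouped where they shared at least 50 distinct 31-base words, which put 57 of 333 into 14 families. The largest had 23 members on 11 chromosomes, a median CpG ratio of 0 and a median word count of 147 copies in the assembly. Where they held perfect short repeats, the main unit was AGCAGG or AGG. Such repeats took 4.69% of the Csmd2 member and 0% of the Sema3d member, so not all were arrays. TGF-β1 samples 1, 2 and 3 called 22, 12 and 16 of the 23 members and the Control samples called 12, 11 and 16, where the rule itself favours TGF-β1 calls. Some of them lay in introns, of Csmd2, Gnao1, Fto, Rimbp2, Sema3d and Odz3, and others lay between genes. At least 4 uninterrupted AGCAGG units were in 12 of 333 members (3.60%) and in 0.675% of all placed union regions. The intergenic member nearest to Postn, 83405 bp from its start site, had 96.1% of its length in such repeats. Its fold enrichment was 1.52 and 1.96 in Control samples 1 and 2 and 2.1 and 1.72 in TGF-β1 samples 1 and 2. Postn encodes periostin, a matrix protein, and the distance is given as a position only.

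Arrays of AGAGGC were in 5 members (1.5%) and 54 placed union regions (0.792%), and in none of the 199 regions called in all 6 samples. They were in 38 of 2307 placed regions called in exactly 1 TGF-β1 sample (1.65%), so they were not particular to members. The TGF-β1 samples called 5, 1 and 4 of the 5 and the Control samples called 2, 0 and 0, where the rule itself favours TGF-β1 calls. Over all placed union regions with this array, the Control samples called 11, 9 and 4 and the TGF-β1 samples 25, 6 and 17. By count alone TGF-β1 sample 2 fell among the Control samples. It had 878 peaks in all, against 2692, 2699 and 2005 in Control, so these counts come from lists of unlike length. Of the 54 regions, 40 were called in 1 sample only. The array members were named after their values were seen, and no test was run. The member in an intron of Odz4, a teneurin, had 1.10 in Control sample 1 and 2.36 and 1.36 in TGF-β1 samples 1 and 3. In it the words occurred 26598 times at the median, so few reads inside the array itself could map uniquely.

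Several members sat in clusters. Of the 267 windows of 1 Mb with a member, 39 held at least 2, which took 105 members. The fullest was the start of chromosome 11 past 3 Mb, with 8 members, of which 6 lay inside Sfi1, a gene for a centrin-binding protein of the centrosome. These 6 had fold enrichments of 1.08 to 2.63 on average over the TGF-β1 samples, on implied local backgrounds of 5.82 to 33.7 fragments with a median of 28.5, against 3.43 over all member values. TGF-β1 samples called 6, 4 and 5 of them and Control samples 3, 5 and 0. The Sfi1 member called in all 3 TGF-β1 samples and no Control sample (chr11:3062678-3063104) had only 1.04, 1.11 and 1.13. The assembly held few repeated words there, at a median of 1.98%, while the median pileup under these peaks was 31.2 fragments against 7.34 over all placed members.

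The windows of chromosome 5 past 14 and 15 Mb held 6 members each, all mostly of repeated words, and the first of these windows has a member in or upstream of Speer4e. Their fold enrichment was 1.22 to 2.06 over the TGF-β1 samples. The 6 members of chromosome 6 past 47 Mb had the highest values of these windows, with means of 2.47 to 4.74. The first pair had Ezh2 as the nearest start site, at 56454 and 90745 bp, and the other 4 lay 35264 to 75095 bp from that of Pdia4, a disulfide isomerase of the endoplasmic reticulum. These distances are positions only, and no peak of the set lay in Ezh2. The words of these 6 occurred 17 times in the assembly at the median. The member at chr6:47687204-47688416 had 1.86, 3.60 and 3.24 in the Control samples and 3.58 and 5.87 in TGF-β1 samples 2 and 3, so the lower TGF-β1 value lay within the Control range. The members of this cluster called in no Control sample reached 6.03 and 3.45 (chr6:47726007-47726720, TGF-β1 samples 1 and 3) and 3.77 and 3.27 (chr6:47722903-47723151, samples 1 and 2). The 4 members of chromosome 8 past 86 Mb had means of 1.61 to 2.07. Chromosomes 5 and 8 held the most members, 41 and 38 of 333 (12.3% and 11.4%), against 7.57% and 10.6% of placed union regions. Mid1 on chromosome X held 3 members, Greb1 2 and Ndst3 2.

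The 6 members called in all 3 TGF-β1 samples and no Control sample were low and varied in kind. The member in an intron of Adamts12, a secreted metalloprotease with thrombospondin motifs (chr15:11252001-11252867), was the highest, with 1.77, 2.83 and 2.43. It held 3 CG pairs in 867 bp and 8.0% of repeated words. The member in an intron of Csmd2, a large membrane protein with CUB and sushi domains (chr4:127898577-127899343), had 2.30, 1.80 and 2.08. Its sequence was of the largest family of related members, with 85.6% of repeated words. The intergenic member at chr5:100652023-100652775 had 94.6% of repeated words, with 147 copies at the median, and fold enrichments of 2.13, 1.93 and 1.62. The remaining members were intronic in 0610012H03Rik (chr2:105093034-105093322; 1.63, 1.65 and 2.03), intergenic near BC024659 (chr13:41338012-41338349; 1.54, 1.72 and 1.86) and in Sfi1 as above. No member of this set lay within 2 kb of a TSS.

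Among members with no Control call, the highest were called in 2 TGF-β1 samples. The highest on a placed chromosome lay at chr17:14354814-14355039, 14.0 kb from the start site of Dact2, a dapper protein that acts on Wnt and TGF-β signalling. It had 8.80 and 9.73 in TGF-β1 samples 1 and 2. An intergenic member 13.2 kb from the start site of Prep, a prolyl endopeptidase (chr10:44773445-44773805), had 7.62 and 3.92 in samples 2 and 3. Another, 47.5 kb from Ankrd45 (chr1:163120377-163120998), had 1.98 and 4.81. These 3 regions consisted of words that were single in the assembly at the median, and each had no peak in the remaining TGF-β1 sample or in any Control sample. Unplaced sequence held 13 members with higher values in places, up to 8.08 and 12.8 in TGF-β1 samples 1 and 3, and chromosome M held 1 (1.24 and 1.44 in TGF-β1 samples 2 and 3 against 1.25, 1.47 and 1.39 in Control). The unplaced sequence was not analysed here.

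Members with 1 Control call included CpG-rich promoters. At Kctd8, an auxiliary subunit of GABA-B receptors (chr5:69731904-69733307), fold enrichment was 1.65 in Control sample 1 and 2.25 and 2.97 in TGF-β1 samples 1 and 3. The region overlapped the start site and had a CpG ratio of 0.783. At Pcsk5, a proprotein convertase (chr19:17910859-17912306), it was 2.13 in Control sample 1 and 1.83 and 3.13 in TGF-β1 samples 1 and 3, which placed Control between the TGF-β1 values. The other leading members were the Ppp1r9a array, a member near Trib1 and a member in an intron of Gna15, a G protein alpha subunit. The member 55.2 kb from Trib1 was mostly of repeated words. It had 1.76 in Control sample 2 and 1.64 and 2.78 in TGF-β1 samples 1 and 2. The Gna15 member had 2.34 in Control sample 2 and 2.49 and 1.85 in TGF-β1 samples 1 and 3. Promoters of Tac1, a tachykinin precursor, and of Dbx1 and Dbx2, homeobox factors of the neural tube, also fell in this group. At Tac1 the single Control value, 5.57 in sample 3, was above 1.82 and 2.01 in TGF-β1 samples 1 and 3.

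With 2 Control calls, the promoter of Cadps stood out. Cadps encodes an activator of dense-core vesicle release, and its member (chr14:13654319-13656040) overlapped the start site and the first coding exon. It had 1.71 and 1.83 in Control samples 1 and 2, no peak in Control sample 3, and 8.11, 4.55 and 4.80 in the TGF-β1 samples. All 3 TGF-β1 values were above both Control values, and the log2 ratio of the means was the highest of the 276 members called in both groups. At Dux, a double-homeobox factor of the early embryo that sits in a tandem array of copies (chr10:57685819-57687462), the values were 1.70 and 2.04 in Control samples 2 and 3 and 5.08 and 2.20 in TGF-β1 samples 1 and 3. In a UTR of Mid1, a ubiquitin ligase gene that spans the pseudoautosomal boundary (chrX:166443521-166446535), they were 1.83 and 1.71 against 2.37 and 4.01 in the same samples. In both cases the peaks lay on multicopy sequence. A member of repeated words 233 kb from Med13l (chr5:119244182-119244830) had 6.28 in TGF-β1 sample 1 but 1.49 in samples 2 and 3, below the Control values of 1.90 and 1.95.

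Members with 3 Control calls lacked exactly 1 TGF-β1 sample by construction, most often sample 2, which called 55 of 138 where samples 1 and 3 called 117 and 104. Rfx6, a factor of pancreatic islet development (chr10:51397345-51398430), had 1.80, 2.71 and 5.70 in Control and 4.09 and 4.55 in TGF-β1 samples 1 and 2. The spread of the Control samples thus covered the TGF-β1 values. An intergenic member 62.6 kb from Gm7358 (chr17:14259091-14260531) had 1.67, 2.05 and 2.54 in Control and 9.26 and 1.55 in TGF-β1 samples 2 and 3, so a single sample carried its high mean. The member at chr1:169270323-169270766, 9.36 kb from Aldh9a1, had 1.63, 1.61 and 2.48 in Control and 5.07 and 2.31 in TGF-β1 samples 1 and 3. The 2 further leading members belonged to the chromosome 6 cluster, with 1.69, 3.76 and 3.62 in Control against 3.53 and 5.50 in TGF-β1 samples 1 and 2 for the second (chr6:47727998-47728247).

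Promoters numbered 104 among the 333 placed members, 6 with 0 Control calls, 14 with 1, 26 with 2 and 58 with 3, and 50 of them had a CpG ratio of at least 0.6. The 10 highest by mean TGF-β1 fold enrichment were Cadps, Rfx6, Dux, Maneal, 4931408C20Rik, H2-Q6, Kctd8, Adra2a, Pcsk5 and Adora2a. Maneal, an endomannosidase-like gene, had 2.15, 2.13 and 2.11 in Control and 2.27 and 4.52 in TGF-β1 samples 1 and 2. H2-Q6, a class Ib major histocompatibility gene, had 1.75, 1.73 and 1.65 in Control and 3.76 and 1.52 in TGF-β1 samples 1 and 2. Adra2a, the alpha-2A adrenergic receptor, had 1.66, 2.17 and 1.90 in Control and 1.92 and 3.22 in TGF-β1 samples 2 and 3. In each of these 3 the higher mean came from a single TGF-β1 sample, with the other inside or close to the Control range. Adora2a, an adenosine receptor of G protein-coupled type, was the highest of the 6 promoters with no Control call, at 3.15 and 1.77 in TGF-β1 samples 2 and 3, and 4931408C20Rik had 1.80, 1.22 and 1.33 in Control and 2.70 and 2.91 in TGF-β1 samples 1 and 3. H2-Q6 and H2-Q7 belong to a family of 5 related members on chromosome 17, all called in 3 Control samples, so their values are uncertain where the copies are alike.

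Promoters of well-known genes with 3 Control calls, named after their values were seen, included Nodal, a ligand of the TGF-β superfamily, with 2.18, 1.79 and 4.17 in Control and 2.13 and 1.78 in TGF-β1 samples 1 and 2. Ntf3, the neurotrophin 3 gene, had 2.22, 1.92 and 1.95 in Control and 1.88 and 1.68 in TGF-β1 samples 1 and 3. At Ntf3 both TGF-β1 values lay below the lowest Control value, and at Nodal 1 lay just below it and 1 within the Control range. Gria2, an AMPA receptor subunit, had 1.59, 1.43 and 1.88 in Control and 1.5 and 2.23 in TGF-β1 samples 2 and 3, and Gabra2, a GABA-A receptor subunit, had 2.40, 2.01 and 1.75 against 1.71 and 2.41 in the same samples.

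Gene lists were read by counts only. A member lay in the gene or within 2 kb upstream for 184 of 22238 protein-coding genes (0.827%). For neurotransmitter receptors it was 4 of 89 genes (4.49%; Gabra2, Gria2, Grin1 and Grin2d), for synaptic adhesion and very long neuronal genes 5 of 120 (4.17%; Csmd2, Lrp1b, Nrg3, Ptpro and Sema3d) and for cadherins and protocadherins 3 of 59 (5.08%; Cdh13, Pcdh10 and Pcdh17). The same lists were high for any union region, with 33, 44 and 12 genes in this order, against 2395 of the 22238. For regions recurrent in Control they had 8, 12 and 4, against 694, so high counts were not particular to members. Long genes hold more regions by their length, and no test of these lists was run. The Sox, Fox, Tbx and Gata list had 2 of 80 (Foxa3 and Foxn3), Adam and Adamts genes 1 of 56 (Adamts12), collagens 1 of 43 (Col8a2) and Zfp zinc fingers 1 of 367 (Zfp423). Hox and related homeobox families (114 genes), Wnt and Fzd genes (43), keratins (99), olfactory (1113) and vomeronasal receptors (324) had 0.

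For the TGF-β pathway the count was 1 of 41 genes, Ltbp4, a latent TGF-β binding protein. Its promoter member had 1.80, 1.79 and 1.80 in Control and 1.83 and 2.0 in TGF-β1 samples 1 and 3. The extracellular matrix list (42 genes) and the 21 core Polycomb genes had 0 members. The marker lists of mesangial cells (12 genes), podocytes (8), endothelium (8), tubules (10) and leukocytes (7) also had 0, and any union region touched 1, 4, 2, 1 and 0 of these genes, so the peaks do not bear on the labelled cell type. Of the genes that the study itself chose on these samples for lost H3K27me3, which are no independent evidence, Tbkbp1 of 31 lost genes held a member. A region recurrent in Control lay in 5 of the 31. Tbkbp1, a partner of the kinase TBK1, had 1.80, 1.18 and 1.95 in Control and 2.21 and 2.43 in TGF-β1 samples 1 and 3. Both of these TGF-β1 values were above all 3 Control values, but TGF-β1 sample 2 had no peak there and so no value.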

How the data were processed

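H3K27me3 was profiled by ChIP-seq in 3 Control and 3 TGF-β1 samples, grouped by their titles. Reads had been aligned with BWA to mm9 and only those that mapped uniquely kept, and the authors deposited 1 broad-peak list per sample, called with MACS 2.1.0.20150731. Per the file headers there was no control library, tags were 49 bp, the cutoffs were q of 0.01 for strong and 0.1 for weak regions, and the local background spanned 10000 bp. The study's methods describe merging the triplicates of a group for peak calling, whereas the deposited lists are per sample. The deposited columns hold the mean pileup (a coverage signal), the fold enrichment (a ratio of pileup to local background) and −log10 p and q values. The number of per-sample columns not used was 0.

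Peaks sharing at least 1 bp were merged with Python 3.11.15, numpy 2.4.6, pandas 2.3.3 and numba 0.67.0, and figures were drawn with matplotlib 3.10.9. GC content, CpG ratio and the copy number of 31-base words were read from NCBIM37 (mm9), and gene positions from its annotation. The exact sign-flip test was run on simulated data in which features were drawn separately for each peak, unlike the shared regions here. Recovery of planted members and differences was checked, and the rate of false calls was not. Named members were those called in 3 TGF-β1 and 0 Control samples, the 5 highest placed members of each subgroup, the 10 highest promoters, genes with 2 or more members, the 5 windows of 1 Mb with most members, and genes of the lists. The telomere-type and other array members, and Lama1, Map2k6, Tac1, Dbx1, Dbx2, Nodal and Ntf3, were named after their values were seen. The members and lists were chosen with earlier results of these data known. Alternatives varied the joining distance, the peak threshold, the overlap, the chromosomes, the list size, the repeated-word and TSS limits, the replicate block and the samples. Some list genes and sequences are not reported here.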

Additional observations from a re-analysis of the deposited data

How the results depend on the processing

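Joining peaks within 1 kb gave 372 members and kept every call. Joining within 5 kb (354 members) and taking equal numbers of the strongest peaks (315) were run for the number of members only. Only peaks with −log10 q of at least 5 gave 41 members and a fold enrichment of at least 4 gave 22. The former gave TSS and intergenic differences from other peaks of -3.96 and 15.6 points, both turned in sign, and lost the remaining calls: CpG 0.0199 and repeated words 21.9 against other peaks, and TSS -26.4, CpG -0.168 and repeated words 15 against regions recurrent in Control. Autosomes alone lost the same calls at 0.0408, 16.4, -23.0, -0.221 and 15.3, in the same order. There the CpG difference from other peaks had exact sign-flip p = 0.0625. The rest kept exact sign-flip p = 0.03125 with adjusted p = 0.0547, so only the adjustment lost their calls. Peaks covering 50% of a region gave 185 members and turned the TSS, intergenic and CpG differences from other peaks to -12.7, 9.69 and -0.0997. With the replicate block the 3 pair differences allow no p under 0.25, so the calls at 0.0355, 16.8, -22.6, -0.224 and 15.4 could not pass. Same-numbered samples had correlations of call deviations of -0.00775, 0.00956 and 0.00395, and differently numbered ones had -0.0219 to 0.0149. Of the 6816 placed regions, 4985 were called in 1 sample only, so these values cannot decide whether the numbers pair the samples. Leaving out 1 sample, where 5 samples allow no p under 0.0625, gave 75 to 340 members, TSS -13.0 to 7.21, intergenic -7.41 to 7.54, CpG -0.127 to 0.0504 and repeated words 15.8 to 26.7 against other peaks, and TSS -34.2 to -22.3, CpG -0.366 to -0.247 and repeated words 12.8 to 24.6 against regions recurrent in Control. Telomere-type members then numbered 2 to 27, an alternative chosen after seeing the data. A region called in every remaining sample was left out in these runs, so the member rule itself changed with the samples. The cause of these changes was not tested, apart from the limits on p, the adjustment and the change of the rule just given.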
